A study of Mus musculus with 62 samples.

Results

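The 35 genes described here encode enzymes that break down amino acids, together with the kinase that switches off the branched-chain step. They were taken by symbol from a count table of 56884 gene IDs and grouped by the amino acid they break down: histidine (3 genes), tyrosine (5), lysine (3), the branched-chain amino acids leucine, isoleucine and valine (11), proline (3), glycine and its methylated forms (6), and alanine and related transaminations (4). Each symbol matched 1 ID, and all 35 were among the 16087 genes that passed the filter on low counts.

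RNA was sequenced from livers of male C57BL/6J mice, for which the labels give no engineered allele. Per the labels, mice were fed a Western diet (WD, with 42% of calories from fat and 15.2% from protein) from 5 weeks of age for 12 weeks, and at 17 weeks had sleeve gastrectomy (SG, removal of about 75% of the stomach) or a sham operation. From day 7 after surgery they ate P7, P21 or P36, diets of matched calorie content with 20% of calories from fat and 7%, 21% or 36% from protein, or stayed on WD. The share of calories from neither fat nor protein thus fell as protein rose. More protein and less of that remainder cannot be told apart in comparisons of P7, P21 and P36. Livers were taken at 14 weeks after surgery, once mice had fasted for 16 h and been refed for 4 h. The libraries with counts were 7 SG P7 and 7 sham P7, 6 SG P21 and 7 sham P21, 4 SG P36 and 5 sham P36, 8 SG WD and 8 sham WD, and 4 sham chow, and a single SG chow library entered no comparison. The make-up of chow is not stated in these sources, and the labels attach the same WD protocol to the chow mice, so whether they had eaten WD is uncertain. In whole liver, fewer cells of a type and less RNA per cell cannot be told apart.

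The liver is the main site at which surplus amino acids are broken down. A transaminase or dehydrogenase takes off the nitrogen, which goes to the urea cycle, and the carbon skeleton is turned into pyruvate, acetyl-CoA or intermediates of the citric acid cycle that feed glucose synthesis, ketone bodies or respiration. Branched-chain amino acids are an exception, since their first transamination takes place mostly in muscle and the liver receives the keto acids. Many of these enzymes are classically induced by protein-rich food, glucagon and glucocorticoids, and Tat was among the first genes in which glucocorticoid induction was studied.

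Promoters are shown for 4 genes whose slopes on dietary protein had opposite signs: Got1 (ENSMUSG00000025190) and Aldh4a1 (ENSMUSG00000028737), which had the highest slopes, and Tat (ENSMUSG00000001670) and Amt (ENSMUSG00000032607), which had the lowest slope and the lowest adjusted p among genes with a negative slope. Each runs from 250 bases before to 50 bases after the start of the gene, 5′ to 3′ on the gene's strand, in RefSeq's annotation of GRCm38.p6. Capitals mark CCAAT and its reverse complement ATTGG, the CCAAT box.
Got1, chr19:43524556-43524855, minus strand: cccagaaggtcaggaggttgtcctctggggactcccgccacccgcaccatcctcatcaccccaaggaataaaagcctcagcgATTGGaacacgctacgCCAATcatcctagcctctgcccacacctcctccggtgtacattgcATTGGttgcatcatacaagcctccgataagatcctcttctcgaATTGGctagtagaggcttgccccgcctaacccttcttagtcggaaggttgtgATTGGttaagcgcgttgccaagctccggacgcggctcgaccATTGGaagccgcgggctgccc
Aldh4a1, chr4:139622644-139622943, plus strand: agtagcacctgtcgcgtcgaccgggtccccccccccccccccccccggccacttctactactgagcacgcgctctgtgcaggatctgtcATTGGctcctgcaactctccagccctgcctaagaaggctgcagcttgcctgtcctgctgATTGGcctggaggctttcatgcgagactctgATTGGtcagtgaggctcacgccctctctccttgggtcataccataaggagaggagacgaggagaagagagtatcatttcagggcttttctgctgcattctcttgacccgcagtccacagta
Tat, chr8:109990186-109990485, plus strand: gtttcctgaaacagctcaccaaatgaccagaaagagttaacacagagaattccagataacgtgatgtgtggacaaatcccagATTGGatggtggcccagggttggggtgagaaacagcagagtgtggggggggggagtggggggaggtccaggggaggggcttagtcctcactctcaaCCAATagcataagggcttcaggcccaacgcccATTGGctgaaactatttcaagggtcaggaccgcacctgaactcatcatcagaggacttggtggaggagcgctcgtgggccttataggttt
Amt, chr9:108296655-108296954, plus strand: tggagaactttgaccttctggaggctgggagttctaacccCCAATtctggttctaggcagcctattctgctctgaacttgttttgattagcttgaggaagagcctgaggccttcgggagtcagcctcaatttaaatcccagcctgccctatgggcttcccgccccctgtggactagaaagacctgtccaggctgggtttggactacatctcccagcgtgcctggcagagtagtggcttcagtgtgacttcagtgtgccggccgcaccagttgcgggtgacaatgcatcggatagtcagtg
Of 5 motifs searched on both strands, only CCAAT was in these windows, with 6 matches in Got1, 3 each in Aldh4a1 and Tat and 1 in Amt. RefSeq promoters were found for 32 of the 35 genes, and 20 of these (62.5%) held CCAAT, against 37.4% of all 32544 promoters. A gene counted if any of its promoters held the motif, while the share over all counts each distinct promoter sequence. The shares here and below are thus in unlike units, and a gene with several promoters had more chances of a match. The cyclic AMP element core TGACG was in 12.5% of the 32 and 20.9% of all. The glucocorticoid receptor motif AGAACA was in 12.5% and 18.9%, and the TATA box TATAAA in 9.38% and 13.6%. TGATGNAAT, the element bound by C/EBP and ATF dimers, was in 0 of the 32 and in 0.956% of all. A match of these letters is a description of the sequence, and a missing match says only that these letters are not in the window.

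Totals ran from 6.99 M counts (SG P21 library 4) to 34.01 M. A library went against its label: the library labelled SG P7 library 7 held 4.17 CPM (counts scaled to a common library total) of Trib3, a gene that rises when amino acids are scarce, against 43.2 to 119 CPM in the other 6 SG P7 libraries. Among the 56 libraries compared, which leave out the single SG chow library, the one most like it was a sham chow library. The counts of calls that use SG P7 are therefore given with and without the library labelled SG P7 library 7, and values that moved with it are given too. SG P36 library 1 held 351.8 CPM of 6 adipocyte markers and 1695 CPM of 6 erythroid markers, the highest sums of its group, whose medians were 17.8 and 537 CPM. SG WD libraries 5 and 7 also lay apart from their group. The hepatocyte markers listed, 7 of them with counts, summed to 42370 to 112200 CPM over all libraries.

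Per kilobase of exon, tyrosine enzymes were the most abundant transcripts of the 35. Averaged over the 56 libraries compared, Hpd, which turns the keto acid of tyrosine into homogentisate, stood at 833 CPM per kb, Tat, the aminotransferase that starts tyrosine breakdown, at 544 CPM per kb, and Fah, which makes its last cut, at 264 CPM per kb. The lowest were Sdsl, a homologue of serine dehydratase, at 3.24 CPM per kb, Mccc1, a carboxylase subunit of the leucine branch, at 3.66 CPM per kb and the kinase Bckdk at 3.99 CPM per kb. These lengths pool all annotated exons of a gene, 10952 bases for Mccc1 and 3695 for Bckdk. In CPM, Mccc1 lay above Bckdk in every group, so ranks per kb depend on the lengths used. Within the branched-chain keto acid dehydrogenase, the E1 subunits Bckdha and Bckdhb stood at 87.1 and 38.4 CPM per kb and the E2 core Dbt at 18.6 CPM per kb.

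Most of the enzymes with a called slope over the protein diets had a positive slope, and a minority a negative slope. The slope over P7, P21 and P36, averaged over SG and sham mice and given as log2 change per doubling of protein ± standard error, was tested by edgeR's quasi-likelihood test with Benjamini-Hochberg adjustment over all 16087 genes, and a gene was called at an adjusted p under 0.05. The slope was higher with protein for 14 of the 35 and lower for 4, so 51.4% were called against 33.7%, 16% higher and 17.7% lower, of all genes, and the median slope was 0.08 over the 35 and 0 over all genes. The genes that rose were Got1, Aldh4a1, Prodh, Sardh, Gldc, Ivd, Uroc1, Dbt, Dmgdh, Hgd, Pccb, Gcdh, Mccc1 and Pcca, with slopes from 0.52 for Got1 to 0.13 for Pcca, Mccc1 and Gcdh. Tat, Agxt, Amt and Amdhd1 had negative slopes, of -0.25, -0.22, -0.21 and -0.17. Tat had its lowest median of these diets on P21 in both operations, and Amdhd1 in sham mice, so these slopes are not steady falls. Several positive slopes were not steady rises either. Medians were lowest on P21 for Prodh and Sardh in SG mice, and for Got1 in sham mice. Without the library labelled SG P7 library 7 the counts were also 14 higher and 4 lower, against 35.4% of all genes. Mccc1 lost its call without SG P36 library 2 (adjusted p = 0.0656), and Pcca without that library or SG P7 library 6 (adjusted p up to 0.0712).

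**Figure D1:**
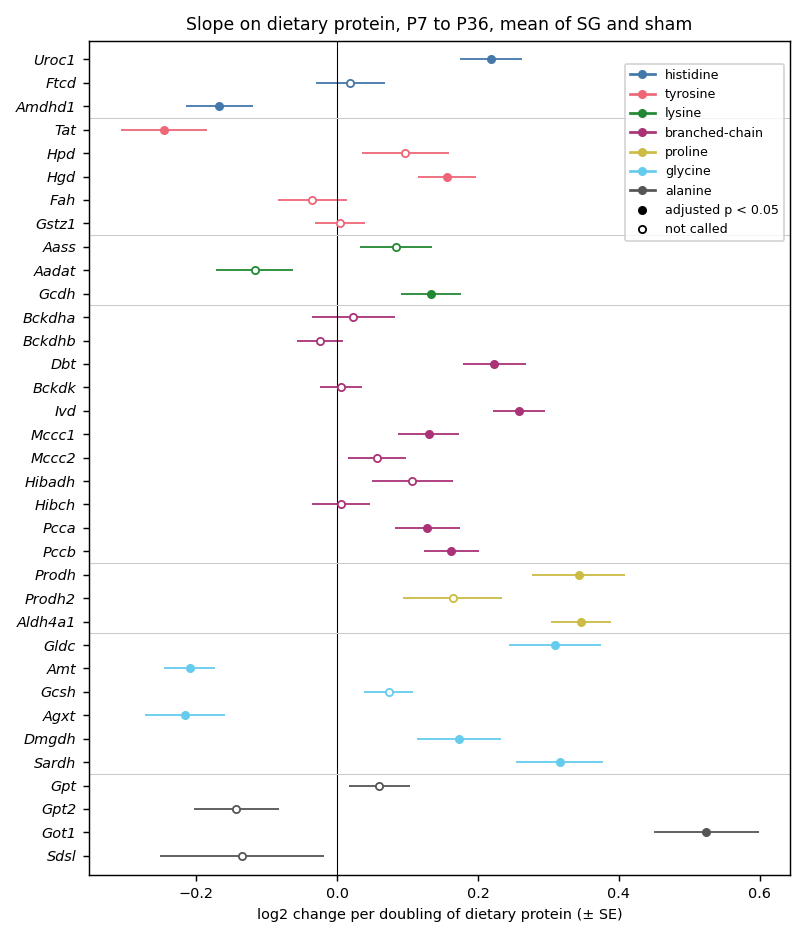
Slope of each of the 35 genes on dietary protein (log2 change per doubling of protein, horizontal axis, ± standard error), coloured by the amino acid broken down, with filled points for an adjusted p under 0.05. Got1 lies farthest to the right at 0.52, and the 4 filled points left of 0 are Tat, Agxt, Amt and Amdhd1.

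Between the ends of the range, 6 of the 35 were lower and 3 higher on P7 than on P36 in SG mice (18.8%, 10.2% higher and 8.65% lower, of all genes called either way), and 9 were lower and 1 higher in sham mice (15.7%, 7.48% higher and 8.19% lower, of all genes). Groups did not overlap for 5 of the 35 in SG mice (8.34% of all genes) and for 5 in sham mice (7.48% of all genes). Without the library labelled SG P7 library 7 the SG counts were 10 lower and 2 higher, against 21.7% of all genes. Aldh4a1, Dbt, Got1, Ivd and Sardh were called lower in both, which is 83.3% of the SG list and 55.6% of the sham list. Over all genes, 45.5% of the SG and 48% of the sham calls that were lower were shared. Of the calls that were higher, 3 in SG and 1 in sham mice, 0 were shared, against 42.3% of the SG and 57.5% of the sham calls over all genes. The median log2 fold change was -0.21 in SG mice and -0.28 in sham mice over the 35, and -0.01 and 0.03 over all genes. No gene of the 35 passed the test of the difference between the SG and the sham response to P7 against P36 in edgeR, limma-voom or DESeq2 (0.149% of all genes did in edgeR), and 5 had an unadjusted p under 0.05 in edgeR. The 5 were Tat, Amt, Amdhd1, Prodh and Bckdk. Without the library labelled SG P7 library 7 edgeR again called 0 of the 35, and 0.0933% of all genes.

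**Figure D2:**
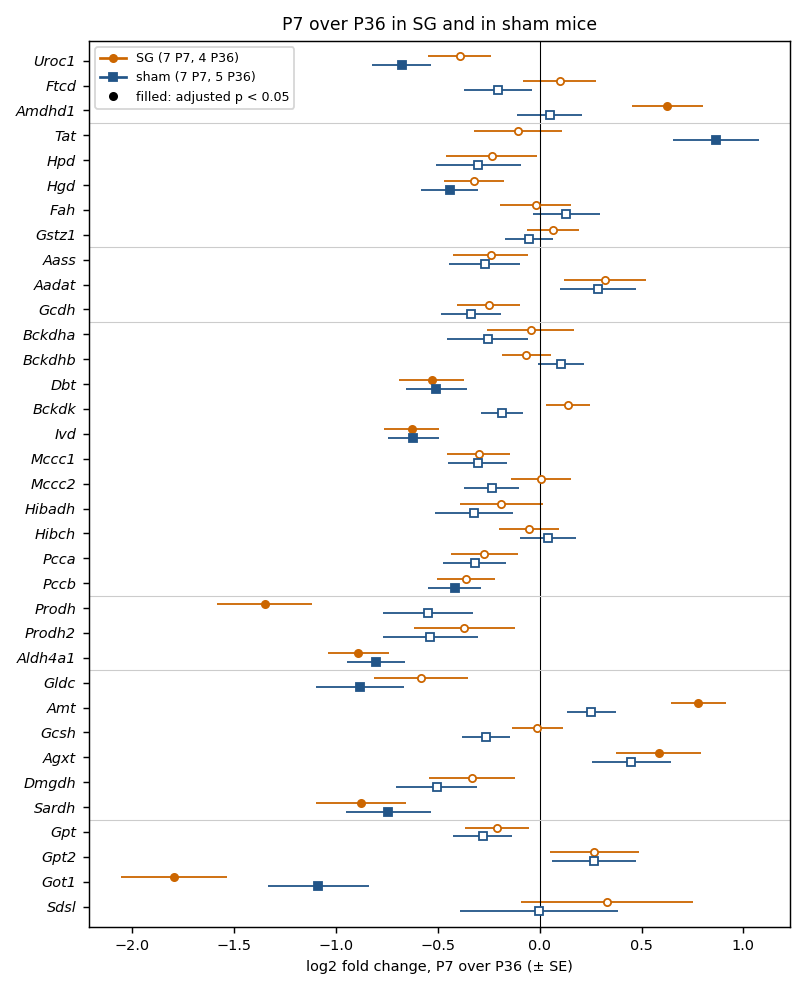
Log2 fold change of P7 over P36 (horizontal axis, ± standard error) for each gene in SG mice (orange circles) and in sham mice (blue squares), with filled symbols for an adjusted p under 0.05. Got1 and Prodh lie farthest to the left in SG mice at -1.80 and -1.35, and Tat lies at -0.11 in SG mice and at 0.87 in sham mice.

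The step between P21 and the 2 other diets differed in the number of calls between SG and sham mice. The share called over all genes differed in the same direction, so this is not particular to the 35. P7 against P21 gave 7 higher and 0 lower genes in SG mice (9.7%, 5.51% higher and 4.2% lower, of all genes called) and 3 higher and 8 lower in sham mice (26.3%, 13% higher and 13.4% lower, of all genes). The SG calls were Amdhd1, Tat, Bckdha, Bckdk, Amt, Gpt and Gpt2, of which 4 were left without SG P21 library 3. The sham calls were Amdhd1, Tat and Bckdhb, higher, and Uroc1, Dbt, Bckdk, Ivd, Pccb, Aldh4a1, Gldc and Sardh, lower. Groups did not overlap for 4 of the 35 in SG mice (3.9% of all genes) and for 4 in sham mice (7.37% of all genes). Without the library labelled SG P7 library 7 the SG counts were 7 higher and 1 lower, Gcsh (-0.35, adjusted p = 0.0401), against 10.2% of all genes. P36 against P21 gave 8 higher and 0 lower in SG mice (7.69%, 3.68% higher and 4.01% lower, of all genes): Tat, Bckdha, Ivd, Prodh, Aldh4a1, Sardh, Gpt and Got1. Groups did not overlap for 12 of the 35, 11 of them higher on P36, against 8.22% of all genes. In sham mice edgeR called 0 of the 35 between P36 and P21 (0.087%, 0.0684% higher and 0.0186% lower, of all genes), limma-voom 0 and DESeq2 1, Got1. The count was also 1 without sham P36 library 2 or 5. There 5 had an unadjusted p under 0.05, and groups did not overlap for 2, Prodh2 and Got1 (1.39% of all genes). Whether SG and sham mice differed in these steps was not tested. The comparisons share the P21 libraries of their own operation.

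Of the histidine enzymes, Uroc1, the urocanase that follows histidine ammonia-lyase, had a positive slope on protein while Amdhd1, the next enzyme, had a negative slope. Uroc1 had 335 to 499.5 CPM (median 384) in SG P7, 333 to 553 CPM (median 426) in SG P21 and 346, 562, 565 and 624.8 CPM in SG P36. The sham values were 246 to 474 CPM (median 297) in sham P7, 385 to 509 CPM (median 435) in sham P21 and 434, 486, 497, 573 and 575 CPM in sham P36. The sham P7 libraries thus lay mostly under those of the other diets, with some overlap, and in SG mice the diets overlapped widely. Its slope was 0.22 ± 0.04 (adjusted p = 7.43e-05), and P7 over P36 was -0.39 ± 0.16 (adjusted p = 0.0685) in SG mice and -0.68 ± 0.15 (adjusted p = 0.000694) in sham mice. In SG mice it passed without the library labelled SG P7 library 7 (-0.46, adjusted p = 0.0326).

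Amdhd1, the imidazolonepropionase, had 157 to 229 CPM (median 191) in SG P7, 106 to 146 CPM (median 134) in SG P21 and 85.5, 132, 134 and 136 CPM in SG P36. In SG mice every P7 library lay above every P21 and every P36 library, with log2 fold changes of 0.53 ± 0.15 (adjusted p = 0.02) over P21 and 0.63 ± 0.17 (adjusted p = 0.00774) over P36. The first was lost without SG P21 library 3 (adjusted p = 0.053) and the second without SG P36 library 1 (adjusted p = 0.0642). After sham surgery there were 120.3 to 212 CPM (median 154) in sham P7, 96 to 160.1 CPM (median 115) in sham P21 and 126, 127, 163, 178 and 203 CPM in sham P36, so P21 had the lowest median and P7 and P36 overlapped (0.05 ± 0.16, adjusted p = 0.88). P7 over P21 in sham mice was 0.44 ± 0.15 (adjusted p = 0.0199), a call lost when any of 5 libraries was left out (adjusted p up to 0.0982). Ftcd, the transferase and deaminase that ends the pathway by passing its carbon to folate, did not pass in any comparison of protein, with a slope of 0.02 ± 0.05 (adjusted p = 0.802).

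Among the tyrosine enzymes the first one, Tat, had its lowest median of the protein diets on P21 in both operations and its highest on P7 in sham mice. In SG mice it had 1384 to 2928 CPM (median 2236) in SG P7, 854 to 1355 CPM (median 1004) in SG P21 and 2014, 2018, 2488 and 2947 CPM in SG P36. P7 and P36 overlapped there and both lay above P21, each without overlap. The sham libraries held 1977 to 2762 CPM (median 2106) in sham P7, 726 to 1385 CPM (median 915) in sham P21 and 1048, 1079, 1346, 1350 and 1446 CPM in sham P36, so that every P7 library lay above every library of the other 2 diets. P7 over P21 was 1.09 ± 0.20 (adjusted p = 0.000195) in SG mice and 1.27 ± 0.19 (adjusted p = 1.56e-06) in sham mice. Over P21, P36 was 1.19 ± 0.22 (adjusted p = 0.000447) in SG mice and 0.41 ± 0.20 (adjusted p = 0.551) in sham mice. P7 over P36 was -0.11 ± 0.22 (adjusted p = 0.782) in SG mice and 0.87 ± 0.21 (adjusted p = 0.0025) in sham mice. The test of that difference gave -0.97 ± 0.30 with an unadjusted p of 0.00203 and an adjusted p of 0.185. The slope of Tat (-0.25) averages levels that were lowest on P21 in both operations.

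Hgd, the dioxygenase that opens the ring of homogentisate, rose with protein (0.16 ± 0.04, adjusted p = 0.00237). It had 276 to 588 CPM (median 405) in SG P7, 395 to 524 CPM (median 469) in SG P21 and 379.9, 539.5, 542 and 616 CPM in SG P36. Sham livers had 298 to 507 CPM (median 419) in sham P7, 422 to 517 CPM (median 483) in sham P21 and 490, 558, 564, 567 and 618 CPM in sham P36. Neighbouring diets overlapped in both operations, and P7 over P36 was -0.32 ± 0.15 (adjusted p = 0.121) in SG mice and -0.44 ± 0.14 (adjusted p = 0.0214) in sham mice. The sham call was lost without sham P7 library 7 (adjusted p = 0.0526). Hpd, Fah and Gstz1, the isomerase before Fah, did not pass in any protein comparison, with slopes of 0.10 ± 0.06, -0.04 ± 0.05 and 0.00 ± 0.04.

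Of the lysine enzymes 1 of 3 passed. Gcdh, the glutaryl-CoA dehydrogenase of the last mitochondrial steps, rose by 0.13 ± 0.04 (adjusted p = 0.014) per doubling. It had 359 to 528 CPM (median 427) in SG P7, 434 to 644 CPM (median 549) in SG P21 and 430.1, 459, 522 and 617 CPM in SG P36. Sham mice had 356 to 510 CPM (median 423) in sham P7, 459.9 to 564 CPM (median 499.7) in sham P21 and 489.7, 519, 533, 578 and 581 CPM in sham P36. Ranges of neighbouring diets overlapped, and no pair of diets passed on its own. Aass, which starts lysine breakdown, and Aadat, the aminoadipate aminotransferase, had slopes of 0.08 ± 0.05 (adjusted p = 0.22), and -0.12 ± 0.06 (adjusted p = 0.0963).

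The branched-chain group, 11 of the 35 genes, held 5 of the 14 genes that rose with protein and none of the 4 called with a negative slope. The 5 of 14 is close to its share of the list, and 4 genes are too few to compare. Branched-chain genes outside the 35 had called slopes in both directions. These were negative for Hsd17b10, Ppm1k and Acat1, and positive for Acad8 and Acadsb. Ivd, the dehydrogenase of the leucine branch, had the steepest slope of the 11 genes (0.26 ± 0.04, adjusted p = 2.44e-07). It had 111 to 205 CPM (median 141) in SG P7, 149 to 187 CPM (median 162) in SG P21 and 204, 219, 223 and 248 CPM in SG P36. The sham values were 116 to 161 CPM (median 123) in sham P7, 159 to 219 CPM (median 179) in sham P21 and 167, 170.3, 171, 201 and 266 CPM in sham P36. In sham mice every P7 library lay under every P36 library, and in SG mice only the library labelled SG P7 library 7 (205 CPM) reached the lowest P36 library. For Ivd, P7 over P36 was -0.63 ± 0.13 (adjusted p = 0.000503) in SG mice and -0.62 ± 0.13 (adjusted p = 0.000301) in sham mice. P36 over P21 in SG mice was 0.45 ± 0.14 (adjusted p = 0.0335), a call lost when any of 5 libraries was left out (adjusted p up to 0.103).

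Dbt, the E2 core of the branched-chain keto acid dehydrogenase, which commits these keto acids to breakdown, also rose (0.22 ± 0.05, adjusted p = 8.41e-05). It had 43.1 to 71.2 CPM (median 52.6) in SG P7, 53.9 to 83.5 CPM (median 63.2) in SG P21 and 69.7, 72.1, 87.8 and 93 CPM in SG P36. After sham surgery there were 35.2 to 59.2 CPM (median 52.8) in sham P7, 65.1 to 89.1 CPM (median 74.7) in sham P21 and 56.1, 67, 70.3, 72.6 and 98 CPM in sham P36. Every sham P7 library lay under every sham P21 library, while the P7 and P36 ranges overlapped at their edges. For Dbt, P7 over P36 was -0.53 ± 0.16 (adjusted p = 0.0144) in SG mice and -0.51 ± 0.15 (adjusted p = 0.0147) in sham mice. Over P21, P7 was -0.23 ± 0.14 (adjusted p = 0.328) in SG mice and -0.55 ± 0.14 (adjusted p = 0.00244) in sham mice. The SG call against P36 was lost without SG P36 library 2 or 3 (adjusted p up to 0.0689), and the sham call without sham P36 library 6 (adjusted p = 0.0656).

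The slopes of the other genes of that complex did not pass. Bckdha, the E1 alpha subunit, Bckdhb, the E1 beta subunit, and Bckdk, the kinase that inactivates E1 by phosphorylation, had slopes of 0.02 ± 0.06 (adjusted p = 0.797), -0.02 ± 0.03 (adjusted p = 0.627), and 0.01 ± 0.03 (adjusted p = 0.9). Bckdha had 122 to 198 CPM (median 165) in SG P7, 59.8 to 120.1 CPM (median 104) in SG P21 and 142, 148, 177 and 180.3 CPM in SG P36. The sham libraries held 96.3 to 289 CPM (median 130.2) in sham P7, 140.1 to 180.2 CPM (median 159) in sham P21 and 173, 180.1, 181, 202 and 206 CPM in sham P36. In SG mice every P21 library of Bckdha lay under every P7 and every P36 library, while the sham diets overlapped. Bckdk had 12 to 18.2 CPM (median 15) in SG P7, 10.4 to 12.9 CPM (median 11.8) in SG P21 and 13, 13.6, 14.1 and 15.1 CPM in SG P36. Sham livers had 10.7 to 16.3 CPM (median 13.7) in sham P7, 14.4 to 20.6 CPM (median 16.2) in sham P21 and 12.5, 15.3, 15.5, 16.8 and 16.9 CPM in sham P36. Among the protein diets, the kinase had its lowest median on P21 in SG mice, where P21 overlapped P7 but not P36, and its highest on P21 in sham mice, where all 3 diets overlapped. Bckdhb had 57.7 to 81.5 CPM (median 76.4) in SG P7, 66.6 to 75.9 CPM (median 72.8) in SG P21 and 67.3, 71.8, 72.4 and 89.3 CPM in SG P36. Sham mice had 53.4 to 82.1 CPM (median 67.3) in sham P7, 46.1 to 60.6 CPM (median 50.9) in sham P21 and 53.7, 55.5, 65.3, 68.6 and 69.9 CPM in sham P36. Its sham P21 values were the lowest of the 6 groups by the median. In SG mice P7 over P21 was 0.67 ± 0.19 (adjusted p = 0.0192) for Bckdha and 0.38 ± 0.10 (adjusted p = 0.00911) for Bckdk, and P36 over P21 was 0.72 ± 0.22 (adjusted p = 0.0314) for Bckdha. In sham mice P7 over P21 was 0.35 ± 0.10 (adjusted p = 0.00844) for Bckdhb and -0.32 ± 0.09 (adjusted p = 0.00718) for Bckdk, against the SG direction for the kinase, a difference that was not tested. The SG Bckdha calls were lost without SG P21 library 3 against P7 (adjusted p = 0.0662), and without any of 6 libraries against P36 (adjusted p up to 0.0806).

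Pccb and Pcca, the subunits of propionyl-CoA carboxylase, which takes the carbon of valine and isoleucine toward succinyl-CoA, rose with slopes of 0.16 ± 0.04 (adjusted p = 0.00099), and 0.13 ± 0.05 (adjusted p = 0.0256). Pccb had 70.3 to 152 CPM (median 110.2) in SG P7, 107 to 129.7 CPM (median 118) in SG P21 and 132, 137, 145 and 166 CPM in SG P36. The sham values were 96.2 to 121 CPM (median 109.5) in sham P7, 135 to 165 CPM (median 144) in sham P21 and 124, 143, 150.1, 151 and 170.2 CPM in sham P36. In sham mice the P7 libraries lay under all P21 and all P36 libraries, and P7 over P36 was -0.42 ± 0.13 (adjusted p = 0.023), a call lost without sham P36 library 6 (adjusted p = 0.0554). In SG mice P7 over P36 was -0.36 ± 0.14 (adjusted p = 0.0639), and passed without the library labelled SG P7 library 7 (-0.45, adjusted p = 0.0166). Pcca had 33.7 to 66.2 CPM (median 47.5) in SG P7, 46.9 to 64.9 CPM (median 54.2) in SG P21 and 52.4, 52.8, 61.2 and 71.2 CPM in SG P36. After sham surgery there were 38.4 to 55.3 CPM (median 52.3) in sham P7, 52.5 to 70 CPM (median 59.8) in sham P21 and 52, 52.9, 59.2, 69.5 and 72.6 CPM in sham P36, with overlap between all diets.

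Mccc1, a subunit of the leucine branch's carboxylase, had 27.9 to 43.6 CPM (median 33.9) in SG P7, 31.3 to 46.4 CPM (median 36.8) in SG P21 and 34.7, 38.7, 42.5 and 55 CPM in SG P36. The sham libraries held 31.7 to 38.7 CPM (median 36.1) in sham P7, 36.6 to 49.1 CPM (median 45.3) in sham P21 and 38.3, 40.8, 41.9, 43.7 and 55.7 CPM in sham P36. All diets overlapped. Its slope passed (0.13 ± 0.04, adjusted p = 0.0155), and that of its partner Mccc2 did not (0.06 ± 0.04, adjusted p = 0.297). Hibadh and Hibch, enzymes of the valine branch, did not pass in any of the 15 comparisons and had slopes of 0.11 ± 0.06 and 0.01 ± 0.04.

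Proline breakdown held the 2 steepest slopes after Got1, those of Aldh4a1 and Prodh. Prodh, the proline dehydrogenase that makes pyrroline-5-carboxylate, had 65.5 to 119 CPM (median 105) in SG P7, 76.7 to 155 CPM (median 87.6) in SG P21 and 188, 249.5, 259.6 and 326 CPM in SG P36. The SG P36 libraries lay above all SG libraries of the other 2 diets, and P7 over P36 was -1.35 ± 0.23 (adjusted p = 2.9e-05) and P36 over P21 1.34 ± 0.24 (adjusted p = 0.000301). Sham livers had 73.2 to 159 CPM (median 84.7) in sham P7, 70.6 to 139 CPM (median 99.7) in sham P21 and 79.6, 148, 151, 178 and 182 CPM in sham P36, which overlapped, with P7 over P36 at -0.55 ± 0.22 (adjusted p = 0.0846), and P36 over P21 at 0.55 ± 0.22 (adjusted p = 0.445). The difference between operations in P7 over P36 was -0.80 ± 0.33 with an adjusted p of 0.37.

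Aldh4a1, which oxidises the product of Prodh to glutamate, had 138 to 336 CPM (median 231) in SG P7, 235 to 277 CPM (median 247) in SG P21 and 327, 416, 487 and 509.8 CPM in SG P36. Sham mice had 187 to 253 CPM (median 209) in sham P7, 297 to 456 CPM (median 376) in sham P21 and 347, 348, 349, 372 and 496 CPM in sham P36. P7 was low in both operations, and in SG mice only the library labelled SG P7 library 7 (336 CPM) reached the P36 range, whereas P21 was low in SG mice and stood near P36 in sham mice. P7 over P36 was -0.89 ± 0.15 (adjusted p = 2.43e-05) in SG mice and -0.80 ± 0.14 (adjusted p = 5.12e-05) in sham mice. Over P21, P7 was -0.10 ± 0.14 (adjusted p = 0.691) in SG mice and -0.77 ± 0.13 (adjusted p = 1.8e-05) in sham mice. P36 over P21 was 0.79 ± 0.16 (adjusted p = 0.00105) in SG mice and 0.03 ± 0.14 (adjusted p = 0.967) in sham mice.

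Prodh2, the related hydroxyproline dehydrogenase, had 85.4 to 182 CPM (median 124) in SG P7, 73.2 to 138 CPM (median 131) in SG P21 and 142, 155, 158 and 197 CPM in SG P36. The sham values were 78.6 to 303 CPM (median 98.2) in sham P7, 112 to 157 CPM (median 141) in sham P21 and 177, 178, 183, 198 and 199 CPM in sham P36. It was called in none of the 15 comparisons, with a slope of 0.16 ± 0.07 (adjusted p = 0.0627). The SG P36 libraries lay above all SG P21 libraries and the sham P36 above all sham P21, and neither pair passed (0.44 ± 0.26, adjusted p = 0.319, and in sham mice 0.46 ± 0.23, adjusted p = 0.555). Its highest value, 303 CPM, was in sham P7 library 7, where the next was 145 CPM.

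The glycine group split. Sardh and Dmgdh, mitochondrial enzymes that strip methyl groups from sarcosine and dimethylglycine, rose with protein, as did Gldc, the decarboxylase of the glycine cleavage system. Sardh had 336 to 905 CPM (median 584) in SG P7, 428 to 611 CPM (median 554) in SG P21 and 712, 1049, 1164 and 1297 CPM in SG P36. After sham surgery there were 434 to 725 CPM (median 516) in sham P7, 670 to 1055 CPM (median 769) in sham P21 and 709.7, 872, 895, 934 and 1180 CPM in sham P36. The library labelled SG P7 library 7 (905 CPM) was the only SG P7 library that reached into the P36 range, and in sham mice P7 and P36 met at their edges. For Sardh, P7 over P36 was -0.88 ± 0.22 (adjusted p = 0.00312) in SG mice and -0.74 ± 0.21 (adjusted p = 0.00968) in sham mice. Over P21, P7 was 0.09 ± 0.20 (adjusted p = 0.835) in SG mice and -0.59 ± 0.19 (adjusted p = 0.0174) in sham mice. P36 over P21 was 0.96 ± 0.23 (adjusted p = 0.005) in SG mice and 0.15 ± 0.21 (adjusted p = 0.86) in sham mice.

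Gldc had 67.4 to 178 CPM (median 77.3) in SG P7, 85.4 to 119.7 CPM (median 90.5) in SG P21 and 99.1, 151, 156 and 159 CPM in SG P36. The sham libraries held 42.2 to 95.6 CPM (median 71.2) in sham P7, 94.4 to 164 CPM (median 127) in sham P21 and 106, 116, 117, 122 and 144 CPM in sham P36. Every sham P7 library lay under every sham P36 library, with P7 over P36 at -0.88 ± 0.22 (adjusted p = 0.00292). In SG mice it was -0.58 ± 0.23 (adjusted p = 0.0682), and passed without the library labelled SG P7 library 7 (-0.81, adjusted p = 0.00464), which held the highest SG P7 value. Dmgdh had 296 to 594 CPM (median 373) in SG P7, 306 to 524 CPM (median 430.1) in SG P21 and 395, 525.6, 559.9 and 561 CPM in SG P36. Sham livers had 313 to 494 CPM (median 417) in sham P7, 392 to 645 CPM (median 603) in sham P21 and 492, 496, 552, 611 and 877 CPM in sham P36. Its slope was 0.17 ± 0.06 (adjusted p = 0.0193), all diets overlapped, and no pair of protein diets passed.

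Amt, the aminomethyltransferase of the same glycine cleavage system, went the other way. It had 46.3 to 62.7 CPM (median 60.5) in SG P7, 37.3 to 47.5 CPM (median 43.5) in SG P21 and 30.6, 33.5, 34 and 34.1 CPM in SG P36, so that all SG P36 libraries lay under all SG P7 and all SG P21 libraries. Sham mice had 41.1 to 63.4 CPM (median 57.2) in sham P7, 47.3 to 61.7 CPM (median 51.1) in sham P21 and 34.8, 40.6, 48.6, 49.3 and 59.2 CPM in sham P36, which overlapped. For Amt, P7 over P36 was 0.78 ± 0.13 (adjusted p = 2.62e-05) in SG mice and 0.25 ± 0.12 (adjusted p = 0.153) in sham mice, and P7 over P21 in SG mice was 0.40 ± 0.12 (adjusted p = 0.0203), a call lost without SG P21 library 1 (adjusted p = 0.0594). The H protein of the system, Gcsh, had a slope of 0.07 ± 0.04 (adjusted p = 0.0963).

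Agxt, the alanine-glyoxylate aminotransferase, which turns glyoxylate into glycine, fell with protein (-0.22 ± 0.06, adjusted p = 0.00239). It had 178 to 243 CPM (median 235) in SG P7, 148 to 204 CPM (median 179) in SG P21 and 132, 134, 144 and 170.3 CPM in SG P36. The sham values were 137 to 288 CPM (median 246) in sham P7, 148 to 239.9 CPM (median 171) in sham P21 and 111, 143, 154, 182 and 219 CPM in sham P36. All SG P7 libraries lay above all SG P36 libraries, and the sham ranges overlapped. P7 over P36 was 0.59 ± 0.21 (adjusted p = 0.0416) in SG mice, a call lost when any of 8 libraries was left out (adjusted p up to 0.124), and 0.45 ± 0.19 (adjusted p = 0.108) in sham mice.

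Got1, the cytosolic aspartate aminotransferase, had the steepest slope of the 35 genes (0.52 ± 0.07, adjusted p = 1.77e-07). It had 58.6 to 123 CPM (median 67.2) in SG P7, 73.4 to 98.2 CPM (median 79.7) in SG P21 and 238, 244, 266 and 327 CPM in SG P36. All SG P36 libraries lay above every other SG library on these diets, while P7 and P21 overlapped (-0.09 ± 0.24, adjusted p = 0.852). After sham surgery there were 40.7 to 82.2 CPM (median 63.6) in sham P7, 55.7 to 74.3 CPM (median 57.3) in sham P21 and 79.1, 104, 117, 185 and 192 CPM in sham P36. The sham P36 libraries lay above all sham P21 libraries, and above the sham P7 libraries but for 1 that fell within the P7 range. For Got1, P7 over P36 was -1.80 ± 0.26 (adjusted p = 1.43e-06) in SG mice and -1.09 ± 0.25 (adjusted p = 0.00133) in sham mice. Over P21, P36 was 1.70 ± 0.27 (adjusted p = 8.47e-05) in SG mice and 1.09 ± 0.25 (adjusted p = 0.0577) in sham mice.

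**Figure D3:**
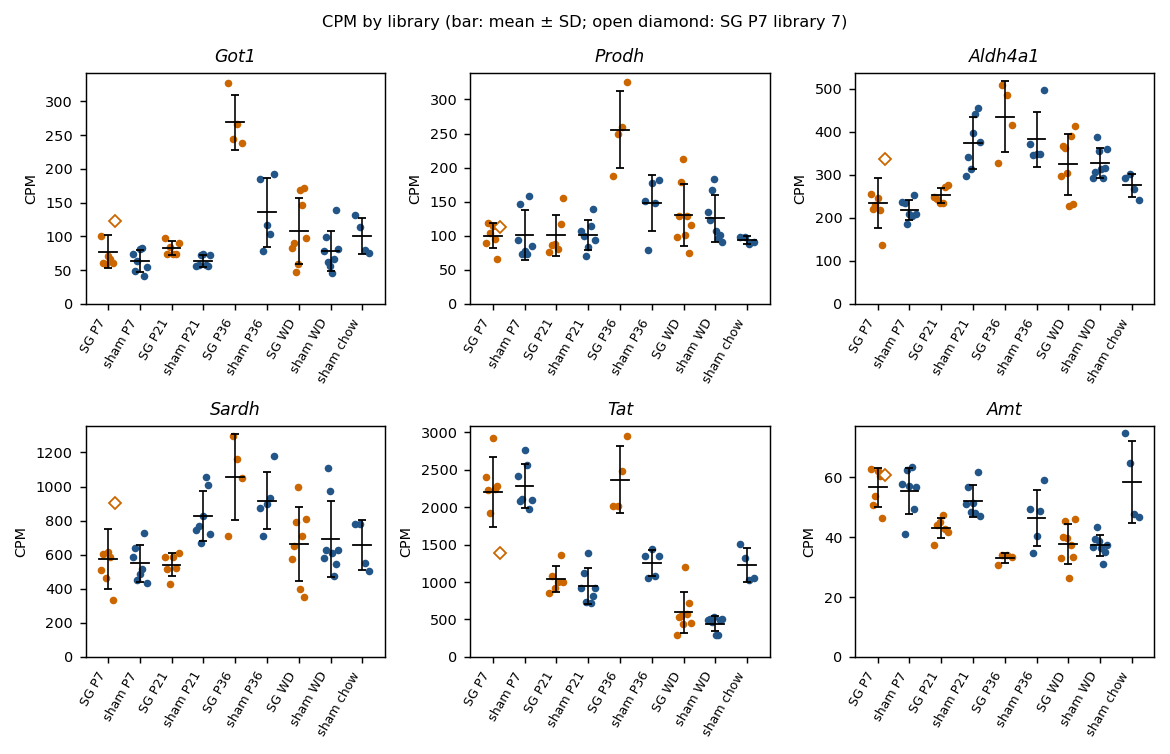
CPM of Got1, Prodh, Aldh4a1, Sardh, Tat and Amt in each library of 9 groups (orange, SG; blue, sham; bar, mean ± SD; open diamond, the library labelled SG P7 library 7), each panel with its own linear axis from 0. Got1 lies between 238 and 327 CPM in the 4 SG P36 libraries and at 123 CPM or less in all SG P7 and SG P21 libraries, and Amt is lowest among the protein diets in SG P36.

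The alanine aminotransferases differed from Got1. Gpt, the cytosolic form, had 221 to 327 CPM (median 262) in SG P7, 169.7 to 205 CPM (median 179) in SG P21 and 214, 314, 332 and 367 CPM in SG P36, so that P21 lay under both other diets without overlap. P7 over P21 was 0.53 ± 0.14 (adjusted p = 0.0121) and P36 over P21 0.73 ± 0.16 (adjusted p = 0.00249) in SG mice. In sham mice Gpt had 163 to 415 CPM (median 213) in sham P7, 199 to 287 CPM (median 219) in sham P21 and 199.8, 285, 301, 320.3 and 354 CPM in sham P36, which overlapped. Gpt2, the mitochondrial form, had 428 to 742 CPM (median 564) in SG P7, 331 to 439 CPM (median 391) in SG P21 and 329.7, 440.1, 569 and 599.9 CPM in SG P36. The sham libraries held 473 to 943 CPM (median 716) in sham P7, 435 to 634 CPM (median 505) in sham P21 and 403, 488, 509.7, 745 and 775 CPM in sham P36. SG P7 and SG P21 met at their edges. There P7 over P21 was 0.59 ± 0.20 (adjusted p = 0.0455), a call lost when any of 10 of the 13 libraries was left out (adjusted p up to 0.0877), and the slopes of Gpt and Gpt2 were 0.06 ± 0.04 and -0.14 ± 0.06. Sdsl was called in no comparison and had 1.64 to 18.9 CPM over all libraries compared.

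The library labelled SG P7 library 7 often held the SG P7 value nearest to P36 or P21, so the SG comparisons are given here without it. P7 over P36 in SG mice was then -1.94 (adjusted p = 2.93e-07) for Got1, -1.38 (adjusted p = 3.21e-05) for Prodh, -0.999 (adjusted p = 1.58e-06) for Aldh4a1 and -1.02 (adjusted p = 0.000475) for Sardh. It was -0.74 (adjusted p = 2.5e-05) for Ivd and -0.59 (adjusted p = 0.00595) for Dbt, and 0.76 (adjusted p = 4.28e-05) for Amt and 0.61 (adjusted p = 0.0105) for Amdhd1. Uroc1, Hgd, Pccb and Gldc became calls, lower on P7, and Agxt lost its call (0.56, adjusted p = 0.0562). P7 over P21 in SG mice was 1.17 (adjusted p = 4.46e-05) for Tat, 0.61 (adjusted p = 0.039) for Bckdha, 0.33 (adjusted p = 0.0223) for Bckdk and 0.47 (adjusted p = 0.0273) for Gpt. Values that did not pass also moved: P7 over P21 in SG mice was -0.24 for Got1 and -0.21 for Aldh4a1, and turned to -0.06 for Sardh. P7 over P36 in SG mice was -0.02 for Tat. The slopes of Bckdha, Bckdk, Ftcd and Gstz1 did not pass either and were 0.04, 0.02, 0.03 and 0.01.

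Markers of other cell types moved with some of these comparisons. Between SG P7 and SG P36, 4 of 6 erythroid markers and 3 of 5 tested adipocyte markers were lower on P7. So were 1 of 9 macrophage, 1 of 6 endothelial, 1 of 5 cholangiocyte and 1 of 7 hepatocyte markers. Erythroid sums were 237 to 495 CPM in SG P7 and 446 to 1695 CPM in SG P36 libraries, and adipocyte sums 6.67 to 27.97 CPM in SG P7 and 17.1 to 351.8 CPM in SG P36 libraries, with no marker of either list at 0 in all libraries of a group. Without SG P36 library 1 and the library labelled SG P7 library 7, 11 of the 35 genes were called between SG P7 and SG P36, against 9 with them. Leaving out SG P7 library 7 alone gave 10 lower and 2 higher, with 21.7% of all genes called against 18.8% with it. The count of 11 thus does not show a rise from leaving out SG P36 library 1. Between SG P36 and SG P21, 4 of 6 erythroid and 2 of 5 adipocyte markers were higher on P36, with erythroid sums of 215 to 465 CPM and adipocyte sums of 13.4 to 30.5 CPM in SG P21 libraries. Without SG P36 library 1, 7 of the 35 were called between SG P36 and SG P21, against 8 with it. The slope on protein was higher for 4 of 5 adipocyte, 3 of 6 erythroid and 2 of 4 skeletal muscle markers. It was also higher for 2 of 9 macrophage, 1 of 6 endothelial and 1 of 5 cholangiocyte markers. Of 7 hepatocyte markers it was higher for 1 and lower for 1. Between sham P7 and sham P36, 2 of 4 muscle markers were lower on P7, with sums of 0.588 to 1.502 CPM in sham P7 and 0.825 to 13.3 CPM in sham P36 libraries. Of 7 hepatocyte markers 1 was higher and 1 lower there, and 1 was higher on P36 than on P21 in SG mice. On P7 against P21, 1 of 9 macrophage and 1 of 5 cholangiocyte markers were lower in SG mice. In sham mice 1 of 7 hepatocyte markers was lower, and 1 of 8 lymphocyte, 1 of 7 stellate cell and fibroblast and 1 of 5 cholangiocyte markers were higher. Their part in the values was otherwise not tested.

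On P21, Bckdhb was higher and Bckdha, Bckdk, Aldh4a1 and Sardh were lower in SG than in sham mice, which is 3 of the 11 branched-chain, 1 of the 3 proline and 1 of the 6 glycine genes. SG over sham thus called 5 of the 35 (8.52%, 3.87% higher and 4.65% lower, of all genes called), and groups did not overlap for 6 of the 35 against 4.62% of all genes. Bckdha had 59.8 to 120.1 CPM (median 104) in SG P21 and 140.1 to 180.2 CPM (median 159) in sham P21, all SG libraries under all sham libraries (-0.68 ± 0.19, adjusted p = 0.0205). Bckdhb had 66.6 to 75.9 CPM (median 72.8) in SG P21 and 46.1 to 60.6 CPM (median 50.9) in sham P21, all SG libraries above (0.45 ± 0.11, adjusted p = 0.00668). These subunits pair within the E1 enzyme, and their transcripts differed in opposite directions. Bckdk had 10.4 to 12.9 CPM (median 11.8) in SG P21 and 14.4 to 20.6 CPM (median 16.2) in sham P21, again without overlap (-0.52 ± 0.10, adjusted p = 0.00165), and Dbt did not pass (-0.19 ± 0.14, adjusted p = 0.431). Pccb did not overlap and did not pass (-0.32 ± 0.13, adjusted p = 0.0985).

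**Figure D4:**
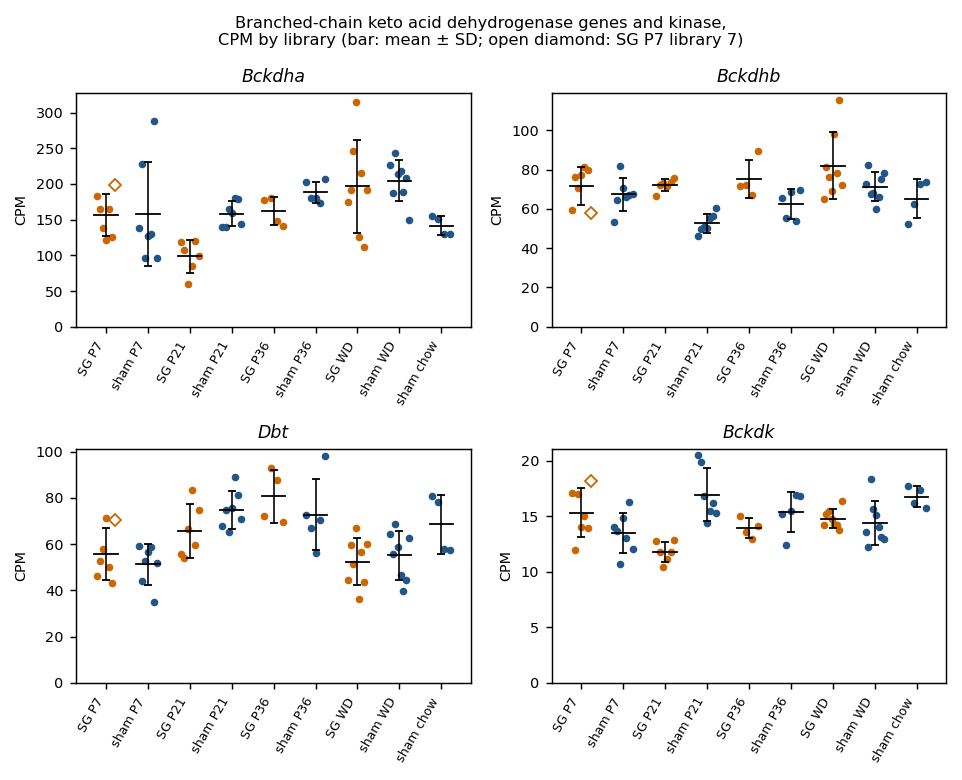
CPM of the branched-chain keto acid dehydrogenase genes Bckdha, Bckdhb and Dbt and of the kinase gene Bckdk in each library of 9 groups (orange, SG; blue, sham; bar, mean ± SD; open diamond, the library labelled SG P7 library 7), each panel with its own linear axis from 0. On P21 the SG libraries lie at 59.8 to 120 CPM for Bckdha, all under the sham libraries, and at 66.6 to 75.9 CPM for Bckdhb, all above them.

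Aldh4a1 was lower in SG mice on P21, with 235 to 277 CPM (median 247) in SG P21 and 297 to 456 CPM (median 376) in sham P21 and no overlap (-0.57 ± 0.14, adjusted p = 0.00825). Sardh was lower too, with 428 to 611 CPM (median 554) in SG P21 and 670 to 1055 CPM (median 769) in sham P21 and no overlap (-0.61 ± 0.20, adjusted p = 0.0452), a call lost when any of 9 of the 13 libraries was left out (adjusted p up to 0.0729). The authors' deposited table, whose fold changes had the same sign as SG over sham here for 90.6% of 15523 genes on P21, called 6 of the 35 on this diet. The authors' deposited table gave log2 fold changes of -0.78 for Bckdha, 0.39 for Bckdhb, -0.57 for Bckdk, -0.62 for Aldh4a1, -0.66 for Sardh and -0.39 for Pccb (adjusted p = 0.0499). Of 9 macrophage markers 1 was higher in SG mice on P21, with sums of 156 to 585 CPM in SG and 132 to 285 CPM in sham libraries and no marker at 0 throughout a group, and its part in these values was not tested. These SG over sham and P7 or P36 over P21 comparisons share the SG P21 libraries.

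On P36, 2 of the 35 were higher and 1 lower in SG than in sham mice (2.22%, 1.22% higher and 1% lower, of all genes called), and none of the 3 calls held when each library was left out in turn. The number called was 0 without sham P36 library 5 or SG P36 library 3 or 4, and 1 without sham P36 library 2 or SG P36 library 1. Tat had 2014, 2018, 2488 and 2947 CPM in SG P36 and 1048, 1079, 1346, 1350 and 1446 CPM in sham P36, without overlap (0.92 ± 0.23, adjusted p = 0.0207), a call lost without sham P36 library 2 or 5 or SG P36 library 3 or 4 (adjusted p up to 0.103). Got1 had 238, 244, 266 and 327 CPM in SG P36 and 79.1, 104, 117, 185 and 192 CPM in sham P36 (0.99 ± 0.29, adjusted p = 0.0488), and Amt 30.6, 33.5, 34 and 34.1 CPM in SG P36 and 34.8, 40.6, 48.6, 49.3 and 59.2 CPM in sham P36 (-0.49 ± 0.14, adjusted p = 0.0447). The groups did not overlap for either gene, yet the call of Got1 was lost when any of 6 of the 9 libraries was left out (adjusted p up to 0.181) and that of Amt when any of 7 was (adjusted p up to 0.158). Prodh also did not overlap, with 188, 249.5, 259.6 and 326 CPM in SG P36 and 79.6, 148, 151, 178 and 182 CPM in sham P36, and did not pass (0.79 ± 0.25, adjusted p = 0.0864). Groups did not overlap for 4 of the 35, against 4.95% of all genes. The authors' deposited table called Tat alone on P36, at 0.90 (adjusted p = 0.0422). Of 5 adipocyte markers 1 was higher in SG mice on P36, and SG P36 library 1, with the adipocyte and erythroid sums given above, held the lowest Tat value but the highest Got1 value of its group.

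On P7 and on WD none of the 35 was called between SG and sham mice by edgeR, limma-voom or DESeq2. On P7 0% of all genes were called, and 2 of the 35, Gldc (0.52 ± 0.20) and Uroc1 (0.32 ± 0.13), had an unadjusted p under 0.05, and the 95% intervals of the 35 lay within -0.66 to 0.93. Without the library labelled SG P7 library 7 the values were 0.29 for Gldc and 0.26 for Uroc1, and 0 of the 35 and 0% of all genes were called. Groups overlapped for all 35 on P7 (0.0497% of all genes did not) and on WD (0.0932% did not). On WD 2.34%, 1.88% higher and 0.46% lower, of all genes were called and 3 of the 35, Tat (0.42 ± 0.18), Got1 (0.46 ± 0.21) and Bckdhb (0.20 ± 0.10), had an unadjusted p under 0.05. SG WD libraries 5 and 7 held the 2 highest values of Tat (1202 and 719 CPM) and of Got1 (169 and 171 CPM) in their group, and without them 0 of the 35 were called as well.

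Sham mice on WD had less transcript of several amino acid enzymes than sham mice on chow. WD over chow gave 10 lower and 0 higher genes of the 35 (31.7%, 17.1% higher and 14.5% lower, of all genes called), with a median log2 fold change of -0.22, against -0.01 over all genes. Called either way were 28.6% of the 35, near the share over all genes. Groups did not overlap for 4, against 14.5% of all genes. Tat had 288 to 526.3 CPM (median 492.5) in sham WD and 1033, 1049, 1318 and 1502 CPM in sham chow, without overlap (-1.46 ± 0.21, adjusted p = 6.27e-07). Amdhd1 had 62.2 to 132 CPM (median 89.1) in sham WD and 186, 206, 216 and 221 CPM in sham chow (-1.10 ± 0.16, adjusted p = 1.27e-06), and Agxt 80.4 to 222 CPM (median 113) in sham WD and 238, 239, 245 and 248 CPM in sham chow (-0.96 ± 0.19, adjusted p = 0.000155), and neither overlapped. Amt did not overlap either, with 31 to 43.3 CPM (median 37.1) in sham WD and 46.9, 47.6, 64.8 and 74.7 CPM in sham chow (-0.65 ± 0.12, adjusted p = 5.73e-05).

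Ftcd (-0.77 ± 0.17, adjusted p = 0.000451), Hpd (-0.72 ± 0.22, adjusted p = 0.0085), Gldc (-0.74 ± 0.22, adjusted p = 0.00845), Ivd (-0.39 ± 0.13, adjusted p = 0.019), Mccc2 (-0.39 ± 0.14, adjusted p = 0.0328) and Aadat (-0.50 ± 0.19, adjusted p = 0.0423) were also lower on WD. Sham chow library 1 bore on several of these: without it 6 of the 35 were called, and Gldc stood at -0.41 (adjusted p = 0.202), where that library held the highest of 79.8, 96.4, 180.3 and 244 CPM in sham chow. The share of all genes called without that library is not given here, so the lower count is not shown to be particular to the 35. Ivd also lost its call without it (adjusted p = 0.0599), Hpd lost its call when the compared groups were fitted alone (adjusted p = 0.0734), and the call of Mccc2 was lost when any of 4 libraries (adjusted p up to 0.0974) and that of Aadat when any of 8 libraries (adjusted p up to 0.109) was left out.

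**Figure D5:**
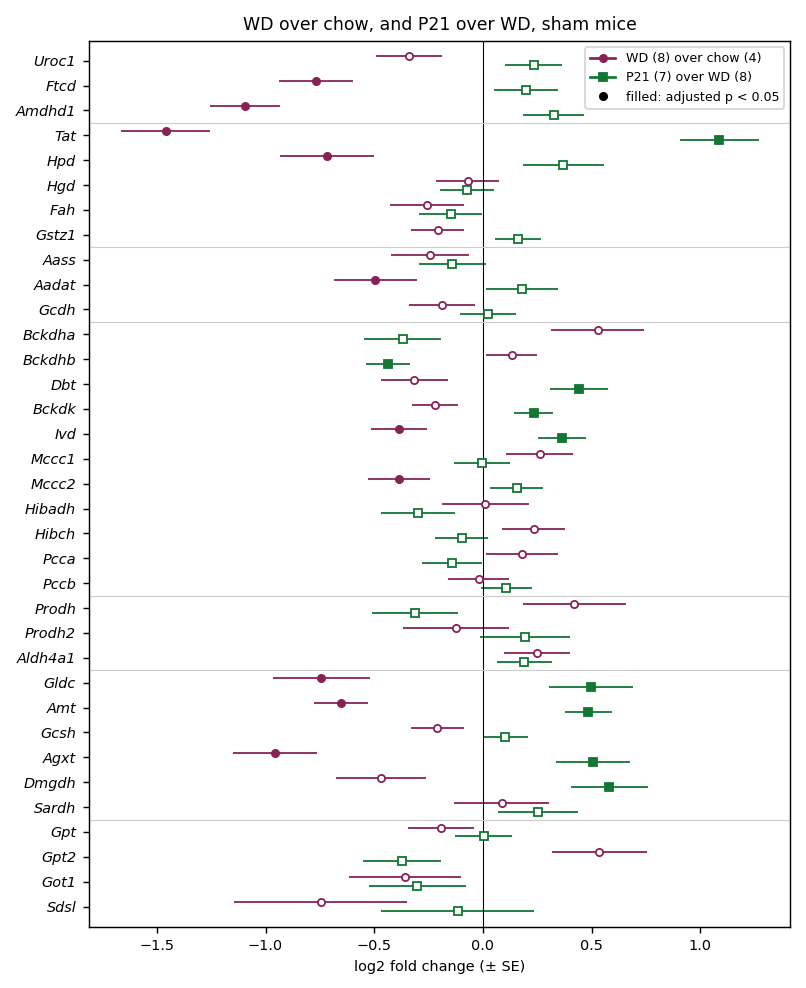
Log2 fold change (horizontal axis, ± standard error) of WD over chow (purple circles, 8 and 4 libraries) and of P21 over WD (green squares, 7 and 8 libraries) for each gene in sham mice, with filled symbols for an adjusted p under 0.05. Tat lies farthest out in both, at -1.46 for WD over chow and 1.09 for P21 over WD, and every filled circle is left of 0.

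In sham mice fed P21 after surgery, 8 of the 35 were higher and 1 lower than in sham mice kept on WD (32.1%, 14.4% higher and 17.8% lower, of all genes called). The share called of the 35, 25.7%, lay under that over all genes. These comparisons share the sham WD libraries, so their directions are not independent. P21 and WD differed in protein (21% and 15.2% of calories) and in fat (20% and 42%), which cannot be told apart here or in SG mice. Tat had 726 to 1385 CPM (median 915) in sham P21 and 288 to 526.3 CPM (median 492.5) in sham WD (1.09 ± 0.18, adjusted p = 9.61e-06) and Amt 47.3 to 61.7 CPM (median 51.1) in sham P21 and 31 to 43.3 CPM (median 37.1) in sham WD (0.49 ± 0.11, adjusted p = 0.000416), both without overlap, which held for 2 of the 35 and 4.58% of all genes. Dmgdh (0.58 ± 0.18, adjusted p = 0.00925), Agxt (0.51 ± 0.17, adjusted p = 0.0178), Gldc (0.50 ± 0.19, adjusted p = 0.0423), Dbt (0.44 ± 0.13, adjusted p = 0.00877), Ivd (0.37 ± 0.11, adjusted p = 0.0093) and Bckdk (0.23 ± 0.09, adjusted p = 0.0394) were higher on P21 with overlapping ranges, and Bckdhb was lower (-0.44 ± 0.10, adjusted p = 0.000709). Agxt lost its call without sham P21 library 2 (adjusted p = 0.0629), Gldc without any of 6 libraries (adjusted p up to 0.0804) and Bckdk without any of 5 (adjusted p up to 0.127). The median over the 35 was 0.16, against 0 over all genes.

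In SG mice P21 over WD gave 2 higher and 4 lower genes (29.5%, 12.4% higher and 17.1% lower, of all genes called), with a median of 0.06 against -0.04 over all genes. The share called either way of the 35, 17.1%, lay under that over all genes. Tat was higher (0.80 ± 0.19, adjusted p = 0.00133), and Bckdha, with 59.8 to 120.1 CPM (median 104) in SG P21 and 111 to 315 CPM (median 192) in SG WD, was lower (-0.996 ± 0.19, adjusted p = 0.000129), as was Bckdk (-0.33 ± 0.10, adjusted p = 0.0079). Bckdk was the 1 gene of the 35 without overlap, against 5.26% of all genes. The other 3 calls, Gcsh higher (0.28 ± 0.11, adjusted p = 0.0431) and Aldh4a1 (-0.36 ± 0.13, adjusted p = 0.0351) and Gpt2 (-0.48 ± 0.19, adjusted p = 0.0487) lower, were less stable. Gcsh lost its call when any of 10 of the 14 libraries was left out (adjusted p up to 0.148), Aldh4a1 with any of 8 (adjusted p up to 0.0738) and Gpt2 with any of 11 (adjusted p up to 0.0975). The number of genes called was 3 without SG WD library 6 or without SG P21 library 2, 3 or 4. For Bckdk the sham and SG changes ran in opposite directions, a difference that was not tested.

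Markers of other cells moved with these differences. Of 9 macrophage markers 8 were higher on WD than on chow in sham mice, with sums of 244 to 866 CPM (median 611) in WD and 90.7 to 129 CPM in chow libraries, and 7 of 9 were lower on P21 than on WD, with sums of 132 to 285 CPM in sham P21 libraries, and in SG mice 6 of 9 were lower on P21. Further lists were lower on P21 than on WD in SG mice: 4 of 6 erythroid, 3 of 4 skeletal muscle, 3 of 7 stellate cell and fibroblast, 3 of 6 endothelial, 2 of 5 cholangiocyte, 2 of 5 adipocyte and 2 of 8 lymphocyte markers, while 3 of 7 hepatocyte markers were higher. In sham mice 3 of 5 cholangiocyte, 2 of 6 erythroid and 2 of 5 adipocyte markers were lower on P21, as were 2 of 6 endothelial and 1 of 8 lymphocyte markers, with 1 of each higher. Of 7 stellate cell and fibroblast markers 5 were higher on WD than on chow, with sums of 201 to 996 CPM in WD and 182 to 311 CPM in chow libraries, and 4 of 7 were lower on P21 in sham mice. Of 7 hepatocyte markers 3 were lower on WD than on chow, with sums of 46320 to 75670 CPM in WD and 89330 to 97600 CPM in chow libraries, and 3 were higher on P21 in sham mice. Of 6 endothelial markers 2 were higher and 1 lower on WD than on chow, of 8 lymphocyte markers 1 higher and 1 lower, of 5 cholangiocyte markers 1 higher, and of 5 adipocyte markers 2 higher. Of these markers 1, of skeletal muscle, was at 0 in all libraries of a group, sham P21. Their part in the values of the 35 genes was not tested.

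A further 56 genes of amino acid breakdown outside the 35, of which 53 were tested, also changed in both directions with protein. The slope was higher with protein for 22 and lower for 8, or 56.6% against 33.7% of all genes, with a median of 0.1. P7 over P36 gave 6 higher and 15 lower in SG mice, or 39.6% against 18.8% of all genes, and 0 higher and 20 lower in sham mice, or 37.7% against 15.7% of all genes. P7 over P21 gave 2 higher and 3 lower in SG mice, or 9.43% against 9.7% of all genes, and 4 higher and 16 lower in sham mice, or 37.7% against 26.3% of all genes. WD over chow gave 4 higher and 18 lower in sham mice, or 41.5% against 31.7% of all genes. P21 over WD gave 15 higher and 6 lower in SG mice, or 39.6% against 29.5% of all genes, and 16 higher and 4 lower in sham mice, or 37.7% against 32.1% of all genes. SG over sham called 0 on P7 and on WD, 1 lower on P21, or 1.89% against 8.52% of all genes, and 1 higher and 3 lower on P36, or 7.55% against 2.22% of all genes. P7 over P21 in SG mice was thus near the share over all genes, and SG over sham on P21 lay under it.

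The steepest of these slopes belonged to Acmsd, which diverts tryptophan carbon away from NAD synthesis (1.00 ± 0.09, adjusted p = 1.16e-12), Sds, the serine dehydratase (0.85 ± 0.13, adjusted p = 8.06e-07), and Gnmt, which methylates glycine to sarcosine, the substrate of Sardh (0.39 ± 0.07, adjusted p = 3.81e-05). Acmsd averaged 7.76 ± 3.26 CPM in SG P7 (n = 7), 17.2 ± 2.72 CPM in SG P21 (n = 6) and 80.9 ± 38 CPM in SG P36 (n = 4), and 6.89 ± 1.91 CPM in sham P7 (n = 7), 12.1 ± 1.7 CPM in sham P21 (n = 7) and 22 ± 5.83 CPM in sham P36 (n = 5). Sds ranged over 12.2 to 47 CPM in SG P7 and 94.9 to 150.1 CPM in SG P36, and over 5.46 to 70 CPM in sham P7 and 41.6 to 118.7 CPM in sham P36, with overlap between the sham groups only. The lowest slopes were those of Hsd17b10 of isoleucine breakdown (-0.29 ± 0.06, adjusted p = 0.00027), Ppm1k, the phosphatase that opposes Bckdk (-0.24 ± 0.07, adjusted p = 0.00928), and Acat1, the thiolase that ends the isoleucine branch (-0.23 ± 0.04, adjusted p = 3.1e-05).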

How the data were processed

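RNA of 62 labelled mouse livers was described, and 57 libraries had counts. The others are not analysed here. Libraries were stranded, poly(A)-selected and read as pairs of 150 bases, per the labels' protocols. Expected counts per gene were made by the authors with RSEM, per the file headers, whose sheet is named for it. The build GRCm39 and R 4.4.1, edgeR and limma come from the submitters' processing notes, which give them no role, and no source names the aligner or annotation. The authors' deposited table holds log2 fold changes, p-values and an F score for SG and sham mice on each protein diet, and its header does not state the direction of the fold.

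Expected counts were rounded to whole numbers, which altered the 3.34% of values that were not whole. With edgeR 4.0.16 in R 4.3.3, genes were filtered by filterByExpr (16087 kept), libraries scaled by TMM, and 56 libraries of 9 groups fitted with 1 mean per group, with 47 residual degrees of freedom and a biological coefficient of variation of 28.2%. The 15 comparisons used the quasi-likelihood test with Benjamini-Hochberg adjustment over all tested genes. Levels are CPM on TMM-scaled library sizes, not lengths, except where given per kb. For those, CPM was divided by the union of a gene's exons in a GENCODE annotation, not by the length of the transcripts present. Groups are from the labels, and libraries are numbered here within their group, in the order of the labels' own library numbers. The labels do not state that each library is a separate mouse. The p-values therefore measure the spread between these libraries, which may in part be technical. No pair of 156 pairs within groups matched within sampling noise. Alternatives were limma-voom (limma 3.58.1), DESeq2 1.42.0, scaling by RLE, a filter of only 1 count in all, the compared groups alone, each library left out in turn, and 2 sets of libraries left out that were chosen after seeing the data. The 35 genes, the further breakdown genes and the marker lists (hepatocyte, macrophage, lymphocyte, endothelial, stellate and fibroblast, cholangiocyte, adipocyte, skeletal muscle and erythroid) were chosen with earlier results of these data known. Values are given for genes called in the slope or in at least 2 of the 4 comparisons of P7, and for both members of related pairs. Of the further genes, the 3 called with the highest and the 3 with the lowest slopes are named.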

Additional observations from a re-analysis of the deposited data

Results flagged for a closer look

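In 12 of 216 groups of 4 to 10 libraries, examined for 24 of the genes, a single library stood far from the rest of its group, and chance alone flags about 1 in 20 groups. Sham P7 library 7 accounted for 4 of them: Gpt at 414.9 CPM (next 250.8 CPM), Prodh2 at 303.4 CPM (next 145.2 CPM), Ivd at 160.5 CPM (next 129.1 CPM) and Dmgdh, the lowest of its group, at 313.1 CPM (next 415.8 CPM). SG P36 library 1, which held the highest adipocyte and erythroid sums of its group, had the lowest SG P36 values of Amdhd1, at 85.5 CPM (next 131.5 CPM), and of Gldc, at 99.1 CPM (next 151.1 CPM).

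The library labelled SG P7 library 7 held 178.3 CPM of Gldc (next 107.3 CPM). Among WD libraries, SG WD library 5 held 1202 CPM of Tat (next 718.5 CPM) and SG WD library 4 held 224.4 CPM of Prodh2 (next 137.3 CPM). On P36, sham library 6 held 495.9 CPM of Aldh4a1 (next 371.9 CPM). On P21, sham library 2 held 239.9 CPM of Agxt (next 186.9 CPM) and sham library 6 held 286.6 CPM of Gpt (next 226.4 CPM).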

How the results depend on the processing

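Over the 7 other settings and the leave-one-out fits, no call of the 35 genes reversed. Of 96 gene calls, 94 held under RLE scaling, 83 with no filter beyond 1 count, 89 under limma-voom, 95 under DESeq2 and 85 with the compared groups alone, and 67 held whichever library was left out. Without SG P36 library 1 and SG P7 library 7, chosen after seeing the data, 40 of 45 calls held, and without SG WD libraries 5 and 7, also chosen then, 5 of 6 held.

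Counts that moved by more than 1.5 times are given here, and the cause was not tested. P36 over P21 in sham mice called 1 of the 35 under DESeq2 and with the groups alone, against 0. SG over sham on P36 called 1 with no filter, under limma-voom, with the groups alone, and without SG P36 library 1 and SG P7 library 7, against 3. SG over sham on P21 called 9 with the groups alone, against 5. P21 over WD in SG mice called 3 with no filter, against 6.

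With each library left out in turn, the calls ranged from 16 to 21 for the slope, 7 to 12 for P7 over P36 in SG mice and 8 to 13 in sham mice, 4 to 8 for P7 over P21 in SG mice and 10 to 14 in sham mice, and 6 to 8 for P36 over P21 in SG mice and 0 to 1 in sham mice. SG over sham ranged from 0 to 2 on P36 and from 4 to 6 on P21, and stayed at 0 on P7 and on WD. WD over chow ranged from 6 to 14, and P21 over WD from 3 to 9 in SG mice and from 7 to 12 in sham mice. Of the leave-one-out fits, shares over all genes are given only for the one without SG P7 library 7. The other counts are thus not shown to have moved apart from those of all genes. No paired analysis was possible because each library carries its own number and groups share none. Mice were housed 2 per cage per the labels. Cage was not fitted, so any libraries from a shared cage were treated as independent. The P36 groups, of 4 and 5 libraries, and the chow group, of 4, limit the precision of the comparisons that use them, and SG P21 library 4 was the shallowest, at 6.99 M counts.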
